A study of Ambystoma mexicanum with 8 samples.

Results

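The microRNAs (miRNAs) of the axolotl forelimb were compared between the early wound stage, 3 days after amputation (dpa), and the uninjured limb (0 dpa). All 143 miRNAs of the small RNA table were taken, without selection on their level. The axolotl (Ambystoma mexicanum) is a salamander that regrows a severed limb, and the study sampled forelimbs cut at the mid-zeugopod, the forearm, at 0, 3, 6 and 14 dpa. At each stage the RNA of at least 4 limb tissues was pooled and made into 1 small RNA library, so each stage is a single pool with no replicate. The axolotls came from 1 stock centre. The labels name no genetic change, and no treatment of either group beyond the day after amputation. Per the methods, limbs were amputated under the anaesthetic MS222. The age of the animals was not given in the sources used here. The 3 dpa library held 901281 miRNA reads and the 0 dpa library 1297551. With 1 library per stage no test could be made and no p-value is given. Intervals are exact 95% Clopper-Pearson intervals, which cover counting error only and not the difference between animals, pools or library preparations. For ratios between the libraries they also take the scaling as fixed.

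A miRNA is a short RNA that guides Argonaute proteins to messenger RNAs, which are then repressed. Pairing runs mainly through the seed, bases 2 to 8 of the miRNA, so that miRNAs of 1 seed can share targets. Some miRNAs are made mainly in 1 kind of tissue, and their reads in a bulk sample can move with the tissues it holds. In the days after amputation the limb stump is covered by a wound epidermis and entered by blood cells, before the blastema, the mound of cells that rebuilds the limb, has formed.

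As far as could be checked, each read number belongs to 1 exact sequence of 20 to 25 bases, as paired with the miRNA's name in a list that accompanies the study. The sequences of the miRNAs on which the comparison turns are shown from 5′ to 3′ with the seed in capitals, first those with the most reads or the largest differences and then families whose members went apart. Names are shortened by dropping the arm and the copy number, so that miR-21 stands for miR-21-1-5p.
miR-21: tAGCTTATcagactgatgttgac
miR-140: tACCACAGggtagaaccacgga
miR-148: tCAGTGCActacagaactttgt
miR-152: tCAGTGCAtgacagaactttgt
miR-206: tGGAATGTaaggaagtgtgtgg
miR-1b: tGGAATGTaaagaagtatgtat
miR-1a: tGGAATGTaaagaagtatgtac
miR-133a: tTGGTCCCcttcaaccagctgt
miR-451: tAACCGTTaccattactgag
miR-144: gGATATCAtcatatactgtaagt
miR-223: tGTCAGTTtgtcaaatacccca
miR-142a: tGTAGTGTttcctactttatgg
miR-155: tTAATGCTaatcgtgatagg
miR-7b: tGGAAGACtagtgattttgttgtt
miR-34c: aGGCAGTGtagttagctgattg
miR-34a: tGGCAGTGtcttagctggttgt
miR-29b: tAGCACCAtatgaaatcagtgt
miR-29a: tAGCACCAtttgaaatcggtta
let-7f: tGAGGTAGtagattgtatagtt
let-7a: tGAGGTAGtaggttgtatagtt
let-7g: tGAGGTAGtagtttgtgtagtt
let-7h: tGAGGTAGtagtttgtgttgtt
The miR-206 and miR-1 sequences share the seed GGAATGT, miR-148 and miR-152 the seed CAGTGCA, miR-34c and miR-34a the seed GGCAGTG, and miR-29b and miR-29a the seed AGCACCA. The let-7f and let-7a sequences differ at 1 of 22 positions, as do let-7h and let-7g, and miR-152 differs from miR-148 at 2 of 22. Of the 5 entries that carry another name in the sequence list, miR-142a-5p is listed as miR-142-3p, miR-199-1-3p as miR-199c-5p, miR-126a-5p as miR-126, miR-210-5p as miR-210-3p and miR-460-3p as miR-460a-5p.

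In 9 pairs of names the whole of 1 sequence lies inside the other, so that a read of the longer one that had lost its end bases would be counted under the shorter name. The 5 pairs with the largest differences between their members are shown because their members, though 1 sequence over most of their length, had log2 ratios more than 1 apart.
miR-26b: tTCAAGTAatccaggatagg
miR-26a: tTCAAGTAatccaggataggct
miR-19c: tGTGCAAAtccatgcaaaact
miR-19b: tGTGCAAAtccatgcaaaactga
miR-27d: tTCACAGTggctaagttctg
miR-27b: tTCACAGTggctaagttctgc
miR-454a: tAGTGCAAtattgcttatagg
miR-454b: tAGTGCAAtattgcttatagggt
miR-203b: gAAATGTTtaggaccacttg
miR-203a: gTGAAATGtttaggaccacttg
In the first 4 of these pairs the shorter form lacks bases only at its 3′ end and keeps the seed. The miR-203b sequence lacks the 2 first bases of miR-203a, which moves its seed.

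Of the 143 miRNAs, 40 were higher at 3 dpa and 39 were lower, taking a log2 ratio of 0.58, or 1.49-fold, as the cut-off on reads scaled by TMM, the trimmed mean of M values. These are 28.0% and 27.3% of all miRNAs, which is the background for the counts by group given here, and 64 miRNAs lay between. The median log2 ratio was 0.05, with quartiles of -0.65 and 0.62. With the TMM scaling taken as fixed, the whole interval lay beyond the cut-off for 31 of the higher and 25 of the lower miRNAs. It included 0 for 23 miRNAs in all. A log2 ratio beyond 2 was computed for 15 higher and 11 lower miRNAs. The 11 include miR-152, miR-146b and miR-2954, which had 0 reads at 3 dpa. Their ratios depend on the small count added before the ratio is taken. For miR-2954 the value at 3 reads is only 1.78-fold, and the upper end of its interval, -0.26, lies inside the cut-off. The scaling bears on these counts, since the reads of miR-21 fill much of the 3 dpa library. Dividing by total miRNA reads instead of TMM lowered log2 ratios by 0.38, a little more or less where reads were few, and 28 miRNAs were then higher and 57 lower. Under all 6 scalings tried, 28 miRNAs were higher and 35 lower. None was higher under 1 scaling and lower under another, but this could not have come out otherwise. Each scaling shifts all ratios by nearly the same amount, which is small beside the distance between the upward and the downward cut-off.

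**Figure D1:**
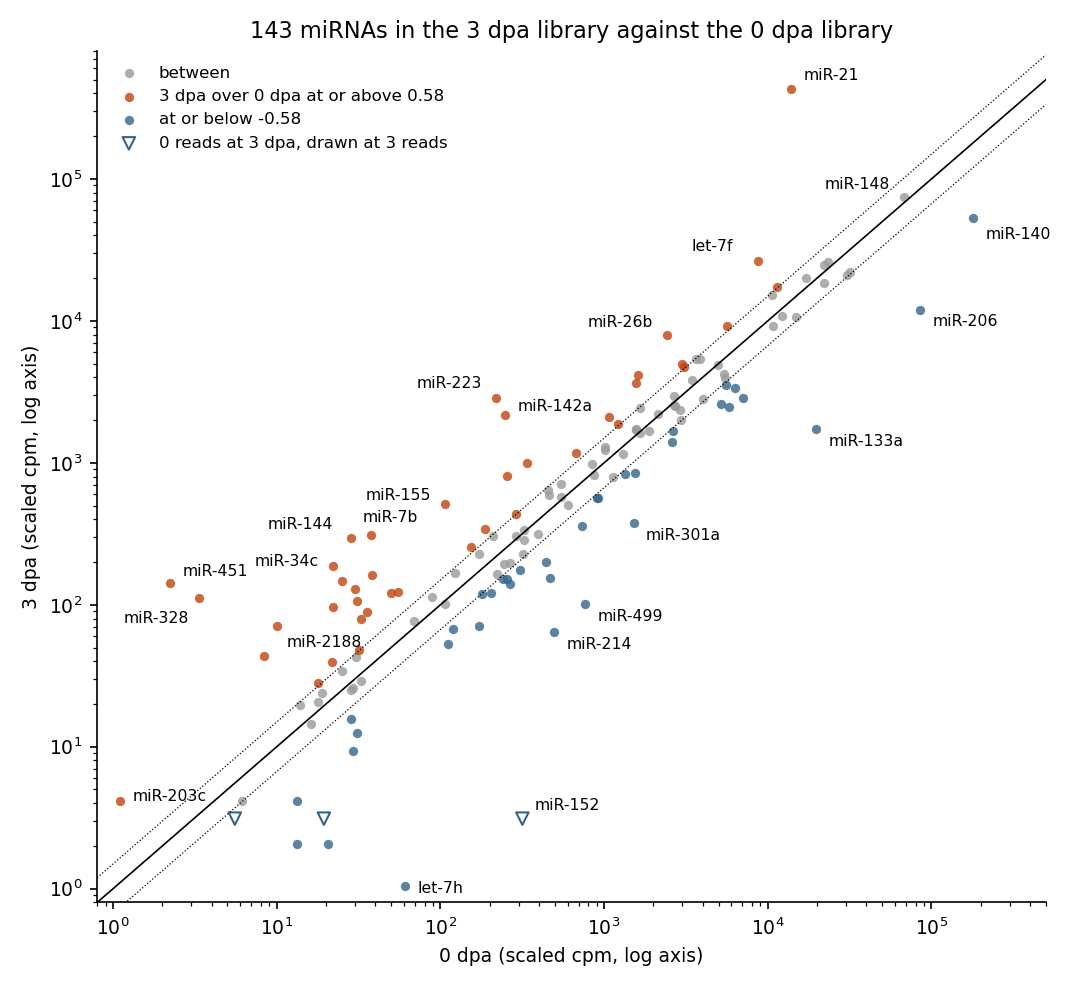
Scaled counts (cpm, counts set to 1 common library size) of the 143 miRNAs at 3 dpa (vertical, log axis) against 0 dpa (horizontal, log axis), with 1 point per miRNA; the solid line marks equal levels and the dotted lines a log2 ratio of 0.58 either way. Triangles are the 3 miRNAs with 0 reads at 3 dpa, drawn at 3 reads. The miR-21 point stands 4.96 log2 units above the line of equal levels, and miR-206, miR-133a and miR-140 stand below it.

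The reads of the 3 dpa library were held by fewer miRNAs. At 3 dpa 2 miRNAs made up 50% of the reads, against 4 at 0 dpa, and 25 miRNAs made up 90%, against 30 at 0 dpa. The inverse Simpson number, the number of equally abundant miRNAs that would give the same concentration of reads, was 4.38 at 3 dpa and 10.3 at 0 dpa. With miR-21 set aside the order turned round, with 18.8 at 3 dpa and 9.98 at 0 dpa. The order of the most abundant miRNAs at 3 dpa was miR-21, miR-148, miR-140, let-7f, miR-143, let-7a, miR-30e, miR-130c, miR-93 and miR-1b. At 0 dpa it was miR-140, miR-206, miR-148, miR-30e, miR-130c, miR-143, let-7a, miR-1b, miR-133a and miR-93, so that 8 of the 10 were the same at both stages. As shares of a fixed total, 51 miRNAs gained and 92 lost. The gains came to 48.6 percentage points, of which miRNAs other than miR-21 made 4.43 points. The share of miR-140 fell by 19.4 points and that of miR-206 fell by 10.6 points.

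**Figure D2:**
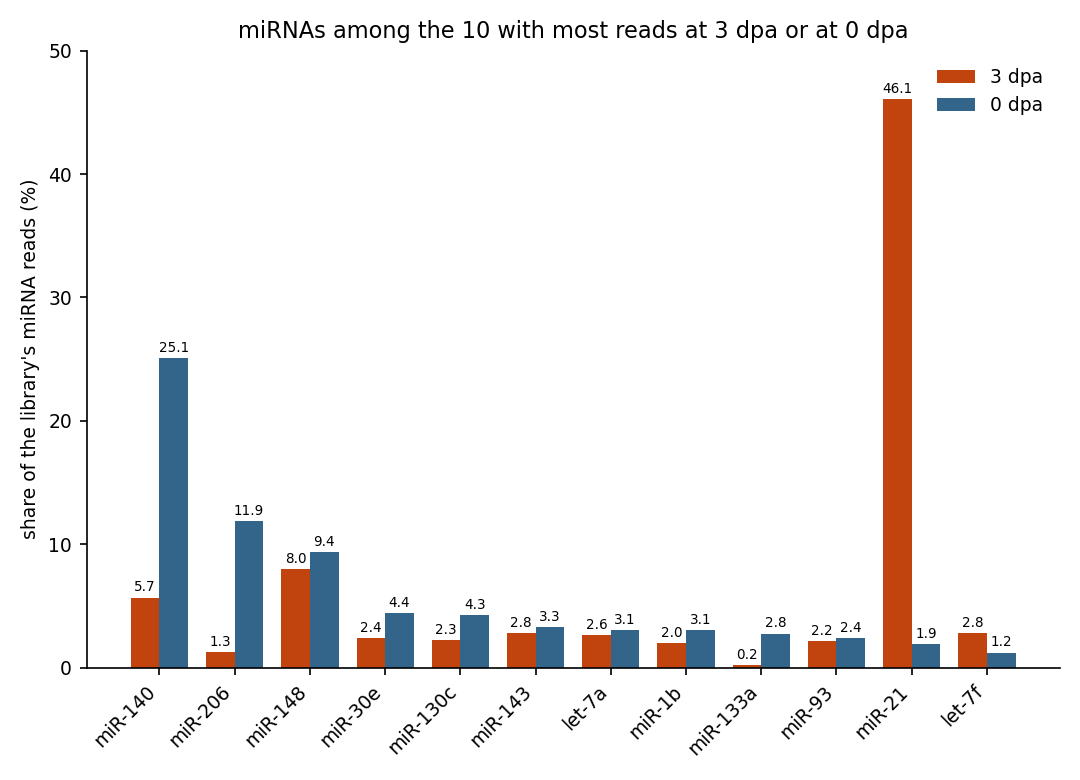
Share of each library's miRNA reads (%, vertical) for the 12 miRNAs that were among the 10 with most reads at 3 dpa (left bar of each pair) or at 0 dpa (right bar). The miR-21 bar stands at 46.1% at 3 dpa and 1.92% at 0 dpa, while miR-140 stands at 5.67% at 3 dpa and 25.1% at 0 dpa.

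The miR-21 sequence had 415620 reads at 3 dpa and 24943 at 0 dpa. This is 46.1% of the reads at 3 dpa (interval 46.0 to 46.2%) and 1.92% at 0 dpa (interval 1.90 to 1.95%), and the miRNA ranked 1st at 3 dpa and 12th at 0 dpa. In mammals miR-21 is raised in wounds and inflamed tissue and represses Pdcd4 and Sprouty messages. On TMM-scaled reads the log2 ratio was 4.96 (interval 4.94 to 4.98), a 31.2-fold difference, and it was 4.58 on total reads. Within the 3 dpa library there were 8.13 miR-21 reads for each miR-140 read, against 0.0766 in the 0 dpa library, a comparison that needs no scaling between libraries. Among miRNAs that reached 10 reads in each library no other had as large a log2 ratio. The miR-148 sequence, which took over the second rank, was close to level, with 71944 reads at 3 dpa and 121752 at 0 dpa (log2 ratio 0.15 by TMM, -0.23 on total reads).

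The miRNAs of blood cells were among the largest differences upward. The erythroid pair, miR-451 and miR-144, which lie in 1 cluster in other vertebrates and act in red cell maturation, had 424 reads at 3 dpa and 55 at 0 dpa (log2 ratio of the sum 3.85, interval 3.44 to 4.28). The miR-451 sequence had 138 reads at 3 dpa and 4 at 0 dpa (log2 ratio 5.95, interval 4.62 to 7.91), and its interval is wide because of the 4 reads. The miR-144 sequence had 286 reads at 3 dpa and 51 at 0 dpa (log2 ratio 3.39). Of the 6 leukocyte miRNAs 4 were higher, 1 was lower and 1 lay between, with a median log2 ratio of 2.19 against 0.05 over all miRNAs. The myeloid miR-223, which restrains neutrophil activation in mice, had 2742 reads at 3 dpa and 394 at 0 dpa (log2 ratio 3.70, interval 3.55 to 3.86). The miR-142 locus is active throughout the blood lineages, and miR-142a had 2086 reads at 3 dpa and 450 at 0 dpa (log2 ratio 3.12). The miR-155 sequence, induced in activated leukocytes, had 495 reads at 3 dpa and 191 at 0 dpa (log2 ratio 2.28), and the lymphocyte miRNA miR-150 had 124 at 3 dpa and 54 at 0 dpa (log2 ratio 2.10). The 2 other members did not share this direction. The miR-146a sequence, which damps inflammatory signalling, had 2855 reads at 3 dpa and 4816 at 0 dpa (log2 ratio 0.15 by TMM, -0.23 on total reads), and miR-146b had 0 reads at 3 dpa and 35 at 0 dpa. With all 6 counted, the summed share was 0.921% at 3 dpa and 0.458% at 0 dpa, a log2 ratio of 1.39. In a bulk sample more cells of a type and more of a miRNA per cell cannot be told apart, and the same holds for fewer cells and less miRNA per cell.

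Other large differences upward were found in miRNAs of no common tissue. Beyond miR-21, miR-223, miR-144, miR-142a and miR-155, the 10 largest differences upward at 10 reads or more in each library were those of miR-34c, miR-7b, miR-2188, miR-2970 and miR-281. The miR-34c sequence, of a family that p53 induces in mammals, had 180 reads at 3 dpa and 40 at 0 dpa (log2 ratio 3.07, interval 2.57 to 3.61). Its relative miR-34a, with the same seed, had 221 reads at 3 dpa and 311 at 0 dpa (log2 ratio 0.41). There were thus 0.814 miR-34c reads for each miR-34a read at 3 dpa (interval 0.665 to 0.996) and 0.129 at 0 dpa (interval 0.0901 to 0.179), and these intervals do not overlap. The miR-7b sequence had 300 reads at 3 dpa and 68 at 0 dpa (log2 ratio 3.04). The miR-2188 sequence had 68 reads at 3 dpa and 18 at 0 dpa (log2 ratio 2.81), miR-2970 had 141 at 3 dpa and 45 at 0 dpa (2.55), and miR-281 had 42 at 3 dpa and 15 at 0 dpa (2.38). With fewer than 10 reads at 0 dpa, miR-328 had 108 reads at 3 dpa and 6 at 0 dpa (log2 ratio 5.04, interval 3.91 to 6.55). All 3 members of the miR-29 family, which represses collagen messages in mammals, were higher. The miR-29b sequence had 93 reads at 3 dpa and 40 at 0 dpa (log2 ratio 2.12, interval 1.57 to 2.69), while miR-29a, of the same seed, had 327 at 3 dpa and 337 at 0 dpa (log2 ratio 0.86, and 0.48 on total reads, inside the cut-off). The third, miR-29d, is the opposite arm with another seed, and had 118 reads at 3 dpa and 99 at 0 dpa (log2 ratio 1.16).

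The muscle miRNAs were lower as a group but not evenly. The list held 4.76% of the reads at 3 dpa and 20.1% at 0 dpa, and of its 7 members 4 were lower and 3 lay between, with a median log2 ratio of -1.64. The miR-206 sequence, made in skeletal muscle, had 11537 reads at 3 dpa and 153884 at 0 dpa, which is 1.28% of the reads at 3 dpa and 11.9% at 0 dpa. Its log2 ratio was -2.83 (interval -2.86 to -2.81), or 7.13-fold lower. The miR-133a sequence, which with miR-1 governs the growth and contraction of muscle cells, had 1666 reads at 3 dpa and 35701 at 0 dpa (log2 ratio -3.52, interval -3.59 to -3.45), and no other miRNA that reached 10 reads in each library had a lower log2 ratio. The miRNAs that lie within myosin heavy chain genes in mammals followed, with 97 reads of miR-499 at 3 dpa and 1382 at 0 dpa (log2 ratio -2.93), and 9 reads of miR-208b at 3 dpa and 53 at 0 dpa (log2 ratio -1.64, interval -2.86 to -0.62). The 3 miR-1 sequences stood apart from these. There were 17741 reads of miR-1b at 3 dpa and 39592 at 0 dpa (log2 ratio -0.25), 10193 of miR-1a at 3 dpa and 26775 at 0 dpa (log2 ratio -0.49), and 1663 of miR-1d at 3 dpa and 2835 at 0 dpa (log2 ratio 0.13). On total reads the ratios of miR-1a and miR-1b were -0.87 and -0.63, past the cut-off, and that of miR-1d was -0.24. Although miR-206 and miR-1 share the seed, there were 0.650 miR-206 reads for each miR-1b read at 3 dpa (interval 0.635 to 0.666) and 3.89 at 0 dpa (interval 3.84 to 3.93). Likewise there were 0.163 miR-133a reads for each miR-1a read at 3 dpa and 1.33 at 0 dpa. In mammals miR-1 and miR-133a are cut from shared precursor transcripts.

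The cartilage miRNAs were lower together. The miR-140 sequence, which lies in an intron of Wwp2 and is needed for the growth of cartilage in mice, had 51098 reads at 3 dpa and 325754 at 0 dpa, or 5.67% of the reads at 3 dpa and 25.1% at 0 dpa (log2 ratio -1.77, interval -1.78 to -1.75, 3.41-fold lower). The miR-455 sequence, also found in cartilage, was far scarcer, with 149 reads at 3 dpa and 837 at 0 dpa (log2 ratio -1.59, interval -1.85 to -1.33). There were 343 miR-140 reads for each miR-455 read at 3 dpa and 389 at 0 dpa. The muscle and cartilage miRNAs miR-140, miR-206, miR-133a, miR-1a and miR-1b were abundant at 0 dpa, while miR-1d, miR-455, miR-499 and miR-208b were far scarcer. Of 4 miRNAs of mesenchyme and smooth muscle, 2 were lower. The miR-214 sequence had 62 reads at 3 dpa and 889 at 0 dpa (log2 ratio -2.94, interval -3.33 to -2.57), and miR-199, made from the same transcript in mammals, had 2390 at 3 dpa and 10457 at 0 dpa (log2 ratio -1.23). The smooth muscle cluster gave 25045 reads of miR-143 at 3 dpa and 42228 at 0 dpa (log2 ratio 0.15), and 277 reads of miR-145 at 3 dpa and 585 at 0 dpa (log2 ratio -0.17, interval -0.39 to 0.03). Neither of these passed the cut-off, and on total reads they stood at -0.23 and -0.55.

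Of 5 neural miRNAs 3 were lower and 2 lay between, and all were scarce, with 0.0255% of the reads at 3 dpa and 0.0532% at 0 dpa. The neuronal miR-124 had 2 reads at 3 dpa and 24 at 0 dpa (log2 ratio -2.63, interval -5.81 to -0.67), miR-128 had 116 at 3 dpa and 367 at 0 dpa (-0.76), and miR-138 had 65 at 3 dpa and 214 at 0 dpa (-0.81). The intervals of miR-9 and miR-137 included 0. The endothelial miR-126a had 2340 reads at 3 dpa and 2991 at 0 dpa (log2 ratio 0.55), inside the cut-off. The miRNAs of epidermis and other epithelium were mixed, with 2 of 9 higher, 2 lower and 5 between (1 higher and 4 lower on total reads). The higher ones were miR-203a and miR-203c. On total reads only miR-203c was higher, and it had 4 reads at 3 dpa and 2 at 0 dpa. The lower ones were miR-200b and miR-205a, the latter with 15 reads at 3 dpa and 51 at 0 dpa. The summed reads of the list gave a log2 ratio of 0.14 by TMM and -0.24 on total reads, so that its direction depends on the scaling. The skin miRNA miR-203a, which drives keratinocytes to differentiate in mice, had 8919 reads at 3 dpa and 10189 at 0 dpa (log2 ratio 0.71, interval 0.67 to 0.75, and 0.33 on total reads). The epithelial miR-205 had 4687 reads at 3 dpa and 8967 at 0 dpa (log2 ratio -0.03), and miR-200c had 4083 at 3 dpa and 9792 at 0 dpa (-0.36). The miR-200b entry, whose seed differs from that of miR-200c, had 68 reads at 3 dpa and 311 at 0 dpa (log2 ratio -1.29). The cluster of miR-182, miR-183 and miR-96, known from sensory epithelium, had 2 of 3 members higher, with 3982 reads of miR-182 at 3 dpa and 2914 at 0 dpa (log2 ratio 1.35), 1819 of miR-183 at 3 dpa and 2205 at 0 dpa (0.63), and 295 of miR-96 at 3 dpa and 379 at 0 dpa (0.54, inside the cut-off). On total reads miR-182 was the only one past the cut-off, at 0.98, with miR-183 at 0.25 and miR-96 at 0.16.

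**Figure D3:**
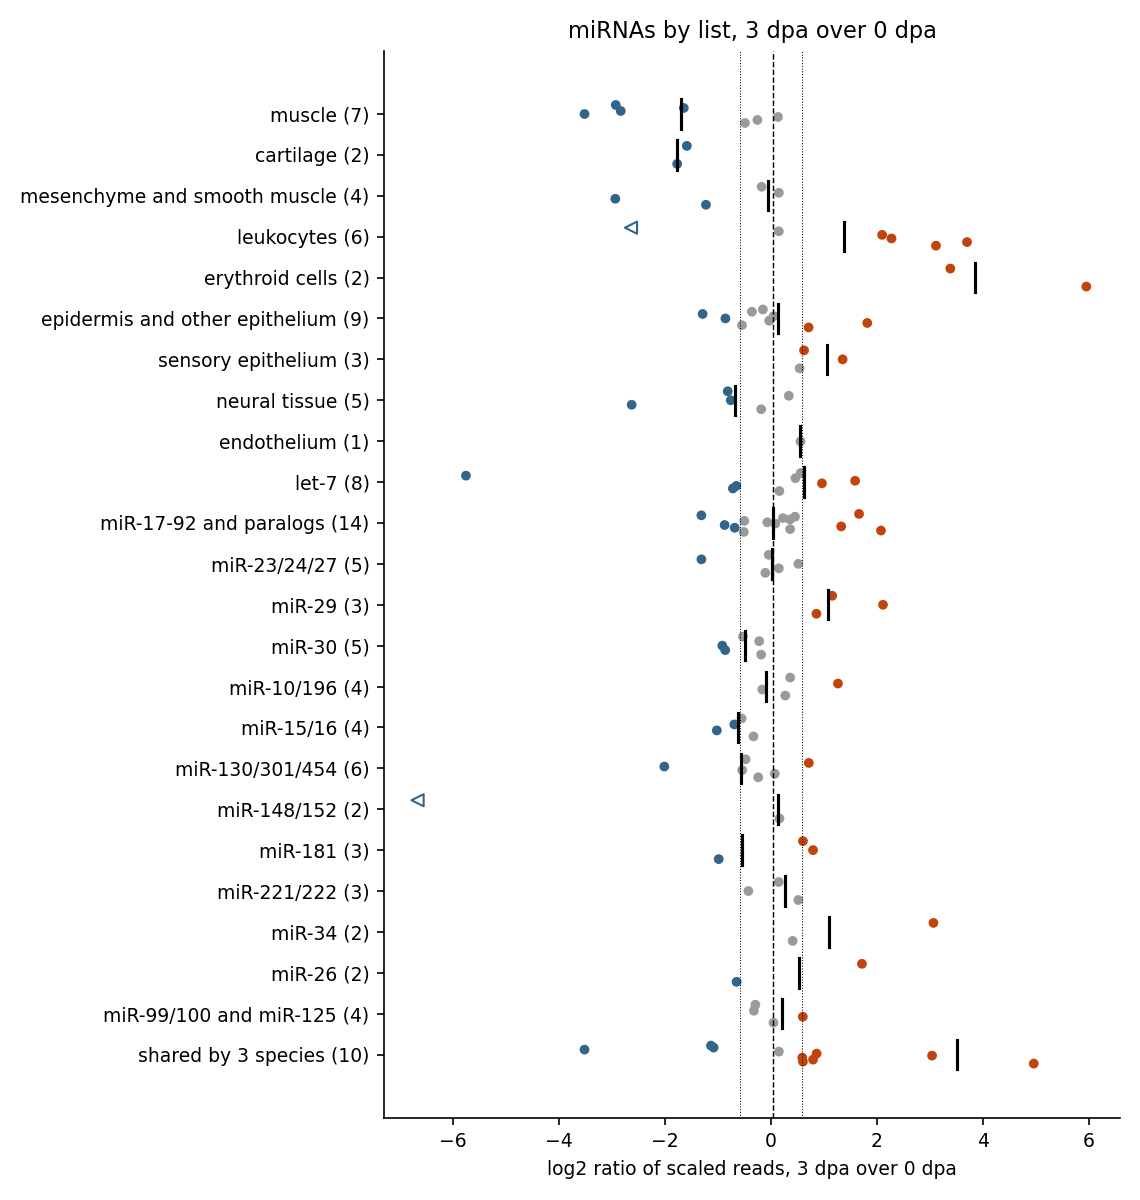
Log2 ratio of scaled reads, 3 dpa over 0 dpa (horizontal), of each miRNA in 24 lists, with the number of members in parentheses; orange points are at or above 0.58, blue at or below -0.58 and grey between. Black bars mark the ratio of each list's summed reads, the dashed line the median of all 143 miRNAs (0.05), and open triangles miRNAs with 0 reads at 3 dpa, drawn at the bound that 3 reads give. The black bars of muscle and cartilage lie left, though 3 of the 7 muscle points are grey and miR-1d stands at 0.13. The erythroid pair lies right, and the let-7 and miR-181 members lie on both sides.

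At 3 dpa 140 of the 143 miRNAs had at least 1 read, and all had reads at 0 dpa. Of the 3 miRNAs with 0 reads at 3 dpa, miR-152 had the most at 0 dpa, with 0 reads at 3 dpa and 571 at 0 dpa. With 3 reads taken as the floor miR-152 was 102-fold lower, a value that leaves out the counting error at 0 dpa. The upper end of its exact interval was a log2 ratio of -6.37. Its seed relative miR-148, which differs from it at 2 of 22 positions, had 71944 reads in the same 3 dpa library. On the same floor miR-146b, with 0 reads at 3 dpa and 35 at 0 dpa, was 6.23-fold lower. On that floor miR-2954, with 0 reads at 3 dpa and 10 at 0 dpa, was 1.78-fold lower. The upper ends of the exact intervals were log2 ratios of -2.27 for miR-146b and -0.26 for miR-2954, the latter inside the cut-off. The let-7h sequence had 1 read at 3 dpa and 110 at 0 dpa, a log2 ratio of -5.76 with an interval of -11.19 to -3.37. Its nearest relative let-7g, at 1 of 22 positions different, had 5152 reads at 3 dpa and 6994 at 0 dpa (log2 ratio 0.46). The miR-194a sequence had 2 reads at 3 dpa and 37 at 0 dpa (log2 ratio -3.25, interval -6.40 to -1.35). The last miRNA with 3 reads or fewer in 1 library, miR-203c, had 4 reads at 3 dpa and 2 at 0 dpa, and its interval of -0.90 to 5.37 leaves its direction undetermined. Among miRNAs with more reads, miR-301a had 362 at 3 dpa and 2730 at 0 dpa (log2 ratio -2.01), miR-27b 2754 at 3 dpa and 12789 at 0 dpa (-1.31), and miR-106b 12 at 3 dpa and 56 at 0 dpa (-1.31, interval -2.35 to -0.40).

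The 143 miRNAs carry 97 distinct seeds, and 68 of them fall in 22 groups of 2 or more with 1 seed. In 5 of these groups, those of let-7, miR-130, miR-26, miR-181 and miR-19, some members were higher and others lower. In the groups of miR-130, miR-26 and miR-19 the only higher member was a shorter form of another, namely miR-454a, miR-26b and miR-19c. Counted together with the longer form, these pairs gave log2 ratios of 0.03, 0.53 and -0.57, inside the cut-off. The let-7 family, which marks differentiated cells in many animals, had 63769 reads at 3 dpa and 77681 at 0 dpa in 8 members of the seed GAGGTAG. Its share was 7.08% at 3 dpa and 5.99% at 0 dpa, and the log2 ratio of its sum was 0.62 by TMM and 0.24 on total reads. Its most abundant member at 3 dpa was let-7f, with 25449 reads at 3 dpa and 15815 at 0 dpa (log2 ratio 1.59, interval 1.56 to 1.62). The let-7a sequence had 23771 reads at 3 dpa and 39795 at 0 dpa (log2 ratio 0.16), so that 1.07 let-7f reads stood for each let-7a read at 3 dpa (interval 1.05 to 1.09) and 0.397 at 0 dpa (interval 0.390 to 0.405). The let-7e sequence was higher (log2 ratio 0.96), let-7c and let-7b were lower (-0.65 and -0.72), as was let-7h, and let-7g and let-7j lay between. In the miR-181 family miR-181a was lower, with 2510 reads at 3 dpa and 9297 at 0 dpa (log2 ratio -0.98), while miR-181b had 1133 at 3 dpa and 1221 at 0 dpa (0.80) and miR-181c had 422 at 3 dpa and 519 at 0 dpa (0.61). On total reads miR-181b and miR-181c stood at 0.42 and 0.23, inside the cut-off. There were 2.22 miR-181a reads for each miR-181b read at 3 dpa (interval 2.06 to 2.38) and 7.61 at 0 dpa (interval 7.17 to 8.09).

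The other families were mostly closer to level. Some entries of these lists, miR-30a, miR-27a and miR-130b, are opposite arms, with seeds that differ from those of miR-30e, miR-27b and miR-130c. Of the 5 miR-30 miRNAs 2 were lower and 3 between, with a summed share of 3.92% at 3 dpa and 7.19% at 0 dpa (log2 ratio -0.50), and 4 were lower on total reads. Of the 4 miRNAs of miR-15 and miR-16, which restrain the cell cycle in mammals, 2 were lower and 2 between (log2 ratio of the sum -0.63, interval -0.69 to -0.57), and all 4 were lower on total reads. Of 6 miRNAs of the miR-130, miR-301 and miR-454 list miR-454a was higher, miR-301a was lower and 4 lay between, while on total reads 0 were higher and 4 lower. The 14 miRNAs of the miR-17-92 cluster and its paralogs, which promote proliferation in mammals, had 3 members higher, 3 lower and 8 between (3 higher and 5 lower on total reads), and their sum gave 0.03 by TMM and -0.35 on total reads. The higher ones were miR-18b (156 reads at 3 dpa, 69 at 0 dpa, log2 ratio 2.08), miR-363 (781 at 3 dpa, 461 at 0 dpa, 1.66) and miR-19c (86 at 3 dpa, 64 at 0 dpa, 1.33). Counted with miR-19b, of which it is a shorter form, miR-19c gave -0.57. The 3 miRNAs of miR-221 and miR-222 all lay between (1 was lower on total reads), 1 of 5 miRNAs of the miR-23, miR-24 and miR-27 list was lower, and 1 of 4 miRNAs of miR-10 and miR-196, which lie in the Hox clusters, was higher. The higher miRNA there, miR-196a, is a shorter form of miR-196d, and the pair together gave 0.43, inside the cut-off. Of 4 miRNAs of miR-99/100 and miR-125 only miR-100 was higher, at 0.60, and its interval reached below the cut-off. On total reads 0 of these 4 were higher and 2 were lower.

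Names whose sequence lies inside that of another were compared within each library. In 7 of the 9 pairs the log2 ratio of the shorter form was above that of the longer one. The miR-26b sequence, which is miR-26a without its last 2 bases, had 7663 reads at 3 dpa and 4355 at 0 dpa (log2 ratio 1.72), while miR-26a had 3422 at 3 dpa and 10029 at 0 dpa (-0.65). The shorter form thus made 69.1% of the reads of the pair at 3 dpa and 30.3% at 0 dpa, with intervals that do not overlap. Counted together the pair gave a log2 ratio of 0.53, inside the cut-off, so the opposite calls of miR-26b and miR-26a rest on the last 2 bases. A like shift was seen for miR-19c in miR-19b, where the shorter form made 9.71% of the pair at 3 dpa and 2.59% at 0 dpa, and for miR-454a in miR-454b, with 52.7% at 3 dpa and 32.7% at 0 dpa. The miR-27d sequence, 1 base shorter than miR-27b, had 1560 reads at 3 dpa and 3000 at 0 dpa (log2 ratio -0.04), against -1.31 for miR-27b, and the pair together was lower (log2 ratio -0.97). The difference was small for miR-181b in miR-181c, with 72.9% at 3 dpa (interval 70.6 to 75.1%) and 70.2% at 0 dpa (interval 68.0 to 72.3%), intervals that overlap. The exceptions were miR-218b in miR-218a, at 37.8% at 3 dpa and 46.6% at 0 dpa with overlapping intervals, and miR-203b in miR-203a, where the shorter form had 4 reads at 3 dpa and 11 at 0 dpa. The files do not tell whether the shorter forms come from genes of their own, and this was not tested.

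**Figure D4:**
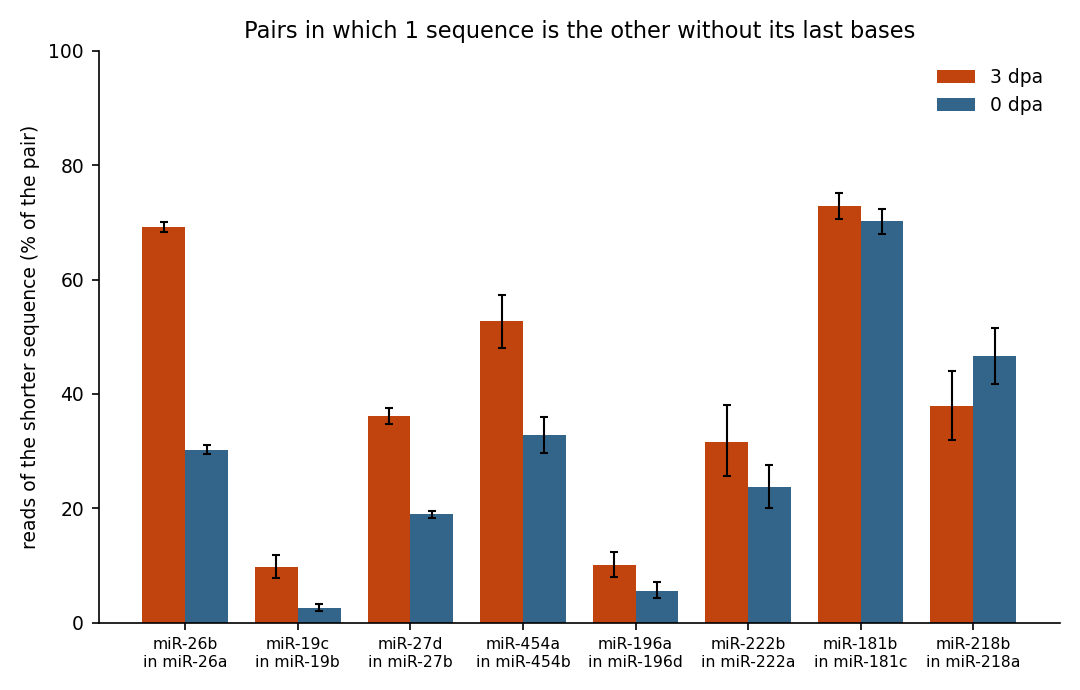
Reads of the shorter sequence as a share of its pair (%, vertical) at 3 dpa (left bar) and 0 dpa (right bar), for the 8 pairs in which the shorter sequence lacks bases at the 3′ end; whiskers are exact 95% intervals of counting error. The miR-26b share was 69.1% at 3 dpa and 30.3% at 0 dpa, and the bars of miR-218b are the only ones with the 3 dpa bar lower.

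Over all miRNAs the log2 ratio was also set beside features of the sequence, as a description. The 15 sequences of 20 bases had a median of 0.46, with 6 higher and 3 lower, the 77 of 22 bases a median of 0.07, and the 31 of 23 bases a median of -0.42, with 5 higher and 11 lower. Among the sequences of 20 bases are the shorter forms miR-26b, miR-27d, miR-196a, miR-222b and miR-203b, already compared with their longer forms. The ratio did not fall steadily with length. The 14 of 21 bases had a median of -0.01, with 5 higher and 6 lower. The 5 of 24 bases had a median of 0.61, and the 1 of 25 bases stood at 1.78. Among the 8 that begin with G, 5 were higher and 0 lower, and among the 17 that begin with C, 2 were higher and 6 lower. The sequences that begin with G include the related miR-203a, miR-203b and miR-203c. Of the higher ones, miR-203c had 2 reads and miR-328 had 6 reads at 0 dpa. Of the 91 that begin with T, 24 were higher and 26 lower, and of the 27 that begin with A, 9 were higher and 7 lower. The 36 miRNAs with the fewest reads had a median of 0.47, and 16 of them were higher and 9 lower. The median read number at 0 dpa was 145 among the higher miRNAs and 795 among all, and also 795 among the lower ones. At 3 dpa it was 293 among the higher miRNAs, 422 among all and 147 among the lower ones. Both groups were defined by the ratio of these reads, so these medians and the shares that follow are partly fixed by that choice. Without miR-21 the higher miRNAs held 10.1% of the reads at 3 dpa and 5.95% at 0 dpa, and the lower miRNAs held 9.60% at 3 dpa and 46.2% at 0 dpa.

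The study chose 10 miRNAs as changed in the same way in zebrafish, bichir and axolotl, for the axolotl by the 6 dpa library against the 0 dpa library used here, so their direction is not independent evidence. At 3 dpa 6 of them were higher, 3 lower and 1 between. On total reads 2 were higher, miR-21 and miR-7b, and 3 lower. Besides miR-21, miR-7b, miR-181b, miR-181c and miR-133a, these were miR-31 with 46 reads at 3 dpa and 57 at 0 dpa (log2 ratio 0.59, interval 0.00 to 1.18, and 0.22 on total reads), miR-338 with 51 at 3 dpa and 202 at 0 dpa (-1.08) and miR-204 with 194 at 3 dpa and 795 at 0 dpa (-1.13). The miR-24 sequence, with 3678 reads at 3 dpa and 6201 at 0 dpa, lay between (log2 ratio 0.15), while its 6 dpa value was -0.73. The miR-2184 sequence had 38 reads at 3 dpa and 39 at 0 dpa (log2 ratio 0.86, interval 0.18 to 1.55, and 0.49 on total reads), while with 4 reads at 6 dpa its value there was -2.50. The study's quantitative PCR, at 6 dpa for the axolotl, found miR-21, miR-181c and miR-31 raised in all 3 species. In axolotl it found miR-2184, miR-338 and miR-24 lowered. It found miR-181b and miR-7b raised and miR-204 lowered in zebrafish and bichir, and miR-133a lowered in bichir. For miR-204 and miR-133a the study's account of its quantitative PCR names no change in axolotl. The study's discussion describes miR-181b and miR-7 as significantly lowered in regenerating axolotl forelimbs. By sequencing, miR-181b and miR-7b stood at 1.64 and 2.14 at 6 dpa.

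Levels at 6 and 14 dpa were set beside those at 3 dpa, and as all are ratios to the 1 library of 0 dpa they are not independent of each other. The miR-21 log2 ratio stood near its 3 dpa value of 4.96, at 5.21 for 6 dpa and 5.17 for 14 dpa. Of the blood cell miRNAs, miR-223, miR-142a, miR-144 and miR-150 were lower at 14 dpa than at 3 dpa, with log2 ratios for miR-223 of 3.70, 3.30 and 0.94 at 3, 6 and 14 dpa, for miR-142a of 3.12, 3.16 and 1.12, for miR-144 of 3.39, 2.48 and -0.85, and for miR-150 of 2.10, 0.56 and -0.99. The miR-155 ratio stayed near its 3 dpa level, at 2.28, 1.99 and 1.97 in the same order, and miR-451 stood at 5.95, 5.87 and 4.39. The miR-146a ratio was 0.15, 1.20 and 0.77, and miR-146b had 0 reads at 3 dpa, 1 read at 6 dpa and 22 reads at 14 dpa. Several miRNAs had more reads at 3 dpa than at any other stage. The miR-34c sequence had 180 reads at 3 dpa, 12 at 6 dpa and 21 at 14 dpa, miR-29b had 93, 12 and 15, and miR-328 had 108 reads at 3 dpa and 0 at both later stages. Others that were lower at 3 dpa stood above the 0 dpa level later, such as miR-181a, with log2 ratios of -0.98, 1.69 and 2.90 at 3, 6 and 14 dpa, and let-7b, with -0.72, 2.04 and 1.29. The log2 ratios of miR-133a were -3.52, -5.07 and -7.56 at 3, 6 and 14 dpa, and those of miR-140 were -1.77, -3.68 and -4.48, lower at each stage. The other cartilage miRNA, miR-455, was about level over these stages at -1.59, -1.45 and -1.68, and the muscle miRNA miR-208b stood at -1.64, -1.50 and -3.45. The miR-1a ratio, inside the cut-off at 3 dpa, was -2.54 at 6 dpa and -4.74 at 14 dpa. The reads of miR-203a were 8919 at 3 dpa, 126034 at 6 dpa and 169465 at 14 dpa, and its log2 ratios at the later stages were 4.39 and 4.29.

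**Figure D5:**
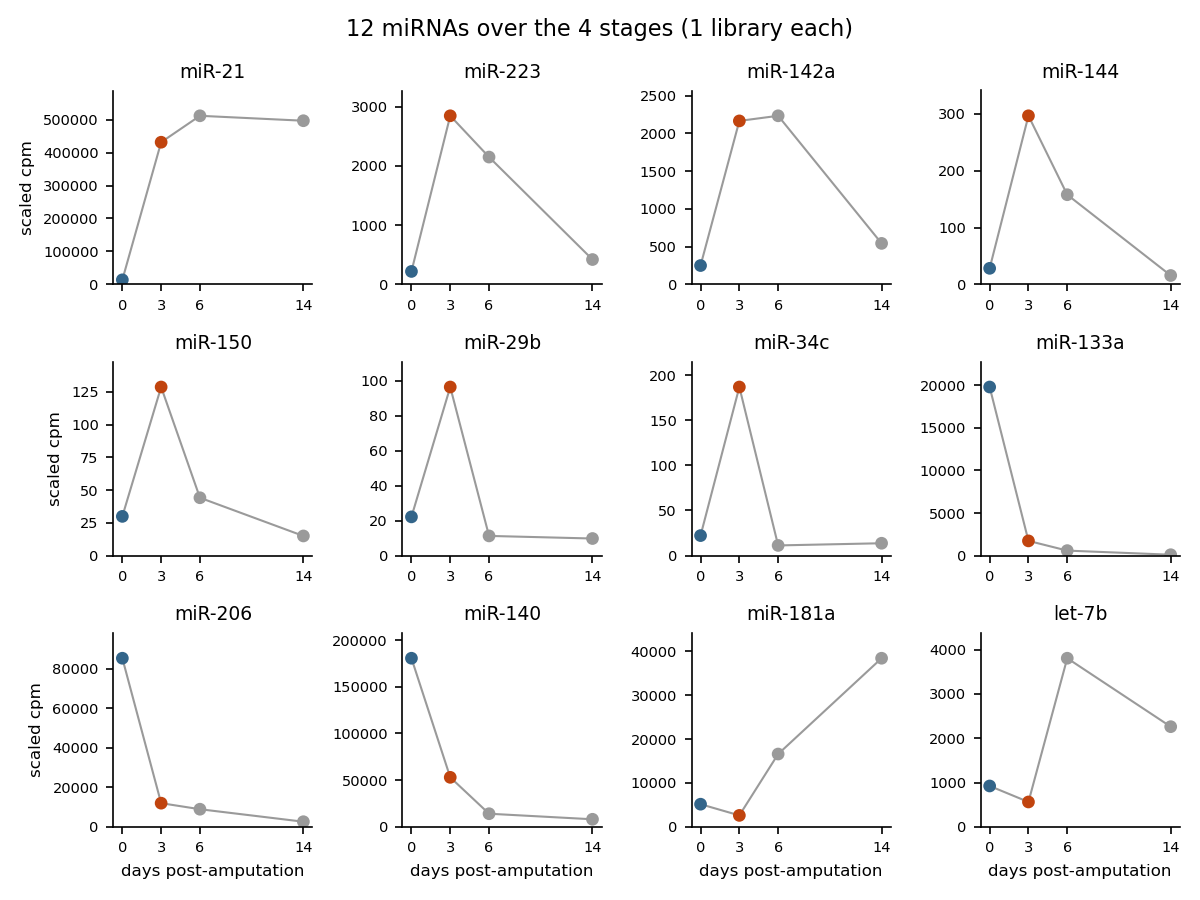
Scaled counts (cpm, vertical, linear from 0, each panel with its own range) of 12 miRNAs by day after amputation (horizontal, 0, 3, 6 and 14), with 1 library per point, the 0 dpa point blue and the 3 dpa point orange. The miR-34c and miR-29b panels peak at 3 dpa, miR-133a, miR-206 and miR-140 go down at each stage, and miR-181a and let-7b dip at 3 dpa before exceeding their 0 dpa level.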

How the data were processed

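Small RNA was measured in 1 axolotl forelimb library per stage, grouped by the labels. Per the methods, the authors clipped and trimmed the reads, collapsed them into tags (FASTX Toolkit) and used miRMiner with miRBase to annotate tags of 20 to 25 bases; versions of the FASTX Toolkit and of miRMiner are not given in the sources used here. The deposited values are log2 of whole read numbers, each that of 1 exact tag for every miRNA that could be looked up among the tags listed with the study, although the table is named as log2 cpm (largest relative deviation from a whole number 3.46e-09). Raising 2 to each value gave reads. In the deposited 3 dpa column 3 cells hold a spreadsheet error mark in place of a log2 value and are of this other kind; they were read as 0 reads, and there were 0 such marks in the 0 dpa column and 2 in each of the later ones. The mRNA table was not used here, and with no axolotl genome at hand the miRNAs carry no positions here.

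The 4 libraries were scaled together by TMM against 0 dpa, trimming 30% of log ratios and 5% of mean levels at each end (factors 1.07 at 3 dpa and 1.39 at 0 dpa), using SciPy 1.17.1, NumPy 2.4.6 and pandas 2.3.3 under Python 3.11.15, with matplotlib 3.10.9 for figures. The code was tested on simulated libraries with known changes in randomly drawn miRNAs, all of them smaller than the miR-21 difference seen here. A prior count of 0.125 was added before log2 ratios. A library with 0 reads was set to 3 reads for a bound, which leaves out the counting error of the other library. With 1 library per stage no test was run. Named miRNAs are the 10 with most reads in each library, the 10 largest rises and falls at 10 reads or more in each library, those with 3 reads or fewer in 1 library, list members, and miRNAs sharing a sequence or seed with these. The miR-328 sequence falls outside this rule and was named after its values were seen, as were the pairs compared within a library and the later stages shown. The lists come from general knowledge and, for 10 miRNAs, from the study. Members and lists were chosen with earlier results of these data known. Alternatives were total reads, upper quartile, median of ratios, the 3 dpa reference, miR-21 left out of the normalization, prior counts of 0.5 and 1, at least 10 reads in both libraries, contained sequences summed, and a cut-off of 1.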

Additional observations from a re-analysis of the deposited data

How the results depend on the processing

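The counts of higher and lower miRNAs, 40 and 39, stayed within 1.5 times these numbers under every scaling, prior count, filter and summing tried, from 28 to 45 higher and from 34 to 57 lower. At a cut-off of 1 there were 27 higher and 22 lower. The split between directions moved by more than 10 percentage points only on total reads, with 28 higher and 57 lower, and there the median log2 ratio of all miRNAs was -0.33 in place of 0.05. Of 52 single miRNAs tried, 37 were past the cut-off, and 5 of these fell inside it under an alternative, namely miR-203a, miR-181b, miR-181c and miR-454a on total reads and miR-26a with the upper quartile, miR-181c also with the median of ratios and with the filter at 10 reads. Among these 37 the only change of sign was that of miR-26a, and it follows from the summing. Its ratio was 0.52 when the reads of miR-26b were summed with it, against -0.65 alone. The scalings shift ratios too little to turn the sign of one past the cut-off. Some miRNAs inside the cut-off, such as miR-148, miR-143, let-7a and miR-93, changed sign on total reads. The miR-21 share at 3 dpa was 46.1% with and without miRNAs under 10 reads in either library, which hold too few reads to move it. With 1 library per stage no replicate could be left out, and no paired analysis was possible because each stage has 1 library. A count of 0 at 3 dpa cannot tell a low level from absence. In that library 3 reads are 3.33 cpm of total miRNA reads, and the exact interval for 0 reads reaches a share of 0.000409%.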
